A study of Mus musculus with 4 samples.

Results

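The 35 genes described here encode enzymes that break glucose down to lactate (glycolysis, 20 genes), pass it through the pentose phosphate pathway (7 genes), store and release it as glycogen (6 genes), or interconvert glycerol 3-phosphate and a glycolytic intermediate (2 genes). They were chosen by gene symbol, and all 35 were among the 17013 genes listed in the deposited table. Wild-type mouse bone marrow-derived macrophages, grown from marrow with M-CSF, were placed on porous culture inserts and exposed for 24 h to the fluid of freeze-thawed bone (artificial necrotic bone fluid, aNBF), which every culture received. The wells beneath held fractions of digested, freeze-thawed and centrifuged mouse abdominal fat, namely the middle layer for the fat control medium (Con, 2 libraries) or the floating fat layer for the high-fat-containing medium (Fat, 2 libraries). Both groups therefore met material from necrotic fat and aNBF, and no culture without either is analysed here. The tissues came from male C57BL/6 mice, and the fat was abdominal, not marrow fat. Age and the number of mice per library are not given in the sources used here. The study asked how the uptake of necrotic fat changes macrophages. Comparing Fat with Con sets 2 media side by side and does not separate uptake from their other differences. No culture with the study's inhibitor of phagocytosis is among these libraries.

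Glycolysis splits glucose into pyruvate in the cytosol and yields ATP without oxygen, and lactate dehydrogenase turns pyruvate into lactate so that the pathway can keep running. Macrophages activated by microbial products are known to raise glycolysis. The pentose phosphate pathway branches off at glucose 6-phosphate and supplies ribose for nucleotides and NADPH, which the phagocyte oxidase and lipid synthesis consume. Glycogen is a branched store of glucose that is built from UDP-glucose and broken down by phosphorylase. Glycerol 3-phosphate is the backbone of triglycerides, and its dehydrogenases also carry electrons from the cytosol to mitochondria.

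Reads recovered from the CPM values summed over the listed genes to between 33573852 and 40785872 in the 4 libraries. This sum need not equal the number of reads sequenced. A single read was worth between 0.0244 and 0.0295 CPM (reads scaled by library size). The 8 macrophage markers were all present, and their summed level was 35962 and 33920 CPM in Con and 28504 and 26918 CPM in Fat, with Mertk and Fcgr1 called lower. Markers of other cells were lower, with 11 adipocyte markers summing to between 208 and 232 CPM, 6 fibroblast markers to between 512 and 656 CPM and 6 listed neutrophil markers to between 316 and 372 CPM. Endothelial markers (5 genes) summed to between 33.8 and 40.9 CPM, lymphocyte markers (5 genes) to between 15.1 and 19.5 CPM, and skeletal muscle markers to at most 0.585 CPM. Among these other lists Car3, Cidec and Gpd1 (adipocyte) were called higher and Dcn (fibroblast) and Vwf (endothelial) lower. The defining genes Ly6g and Myh4 were not listed or had no read. Nothing says whether the libraries of a medium came from separate cultures or mice, so p-values measure only the spread between these libraries.

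Of the 35 genes, 12 rose in Fat, 3 fell and 20 did not pass the test (limma on log2(CPM + 0.1), two-sided, adjusted over 12470 tested genes, adjusted p under 0.05). Among all tested genes 3.99% were called higher and 5.0% lower. The median log2 fold change of the members was 0.12, against 0.01 for all tested genes, of which the middle 50% lay between -0.11 and 0.13. The Fat and Con libraries did not overlap for 20 members that were higher in Fat and 6 that were lower, where 29.4% of all tested genes were separated with Fat higher and 26.2% with Fat lower. The members ranged from -0.54 for Hk3 to 0.62 for Gapdh. In single libraries the members spanned 4.28 to 1922 TPM, a unit also scaled for gene length and used wherever different genes are set side by side. The calls rested on a spread that limma takes from genes of similar level, and without that trend none of the 15 passed (adjusted p from 0.0831 to 0.152).

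**Figure D1:**
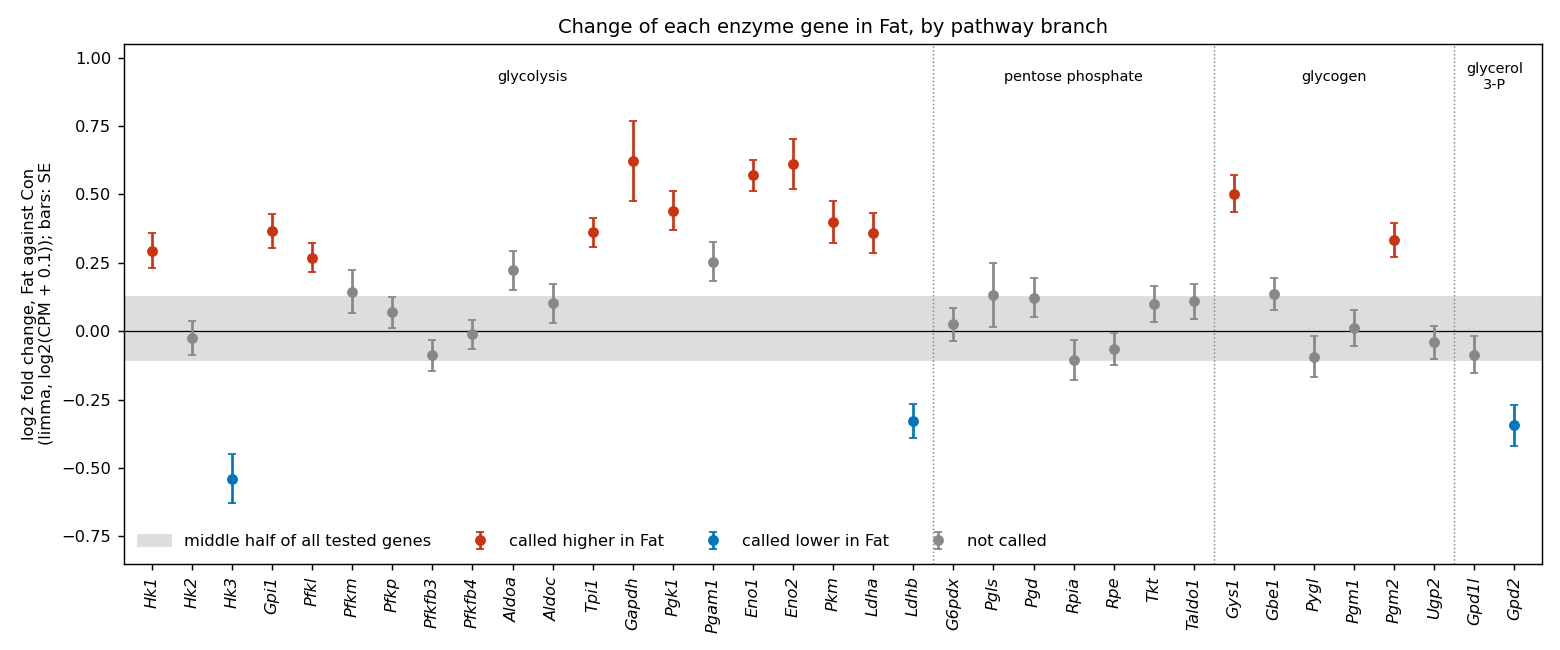
Log2 fold change of CPM (Fat over Con) for the 35 enzymes, grouped by pathway, with points for the limma estimate, bars for its standard error and a grey band for the middle 50% of all tested genes. The enzymes from Gapdh to Pkm all lie above 0, Hk3, Ldhb and Gpd2 lie below the band, and the 7 pentose phosphate enzymes lie between -0.10 and 0.13.

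Glycolysis opens with hexokinase, which traps glucose in the cell as glucose 6-phosphate, and its forms moved in opposite directions. Hk3, the form enriched in myeloid cells, had 719 and 836 CPM in Con and 563 and 506 CPM in Fat. Both Fat libraries lay below both Con libraries, and Hk3 fell by 0.54 on the log2 scale (SE 0.09, limma adjusted p = 0.0145). The summed macrophage markers were lower in Fat too, their part in the Hk3 difference was not tested, and in bulk RNA fewer cells of a type and less RNA per cell cannot be told apart. Hk1, the widely expressed form bound to mitochondria, had 83.6 and 92.3 CPM in Con and 107.6 and 107.9 CPM in Fat, and rose by 0.29 (log2, SE 0.06, limma adjusted p = 0.0305). The groups did not overlap for Hk1, although its call was lost without Con replicate 1 (adjusted p = 0.105), Fat replicate 1 (0.0733) or Fat replicate 2 (0.108). Hk2, the form induced by hypoxia and growth signals, had 78.2 and 75.7 CPM in Con and 78.9 and 72.5 CPM in Fat, which overlapped (log2 fold change -0.03, SE 0.06, limma adjusted p = 0.852).

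Per unit of length, Hk3 made up most hexokinase mRNA in both media. Its share of the summed hexokinase TPM was 87.0% and 88.2% in Con and 81.9% and 80.7% in Fat. The share of Hk1 was 7.34% and 7.06% in Con and 11.3% and 12.5% in Fat, and that of Hk2 was 5.61% and 4.74% in Con and 6.80% and 6.86% in Fat. These shares separated the media without overlap, and the exact two-sided permutation p of 0.33 is the smallest that 2 against 2 libraries can give. The summed hexokinase TPM was 553 and 622 in Con and 467 and 425 in Fat, so Fat was the lower group in total as well.

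**Figure D2:**
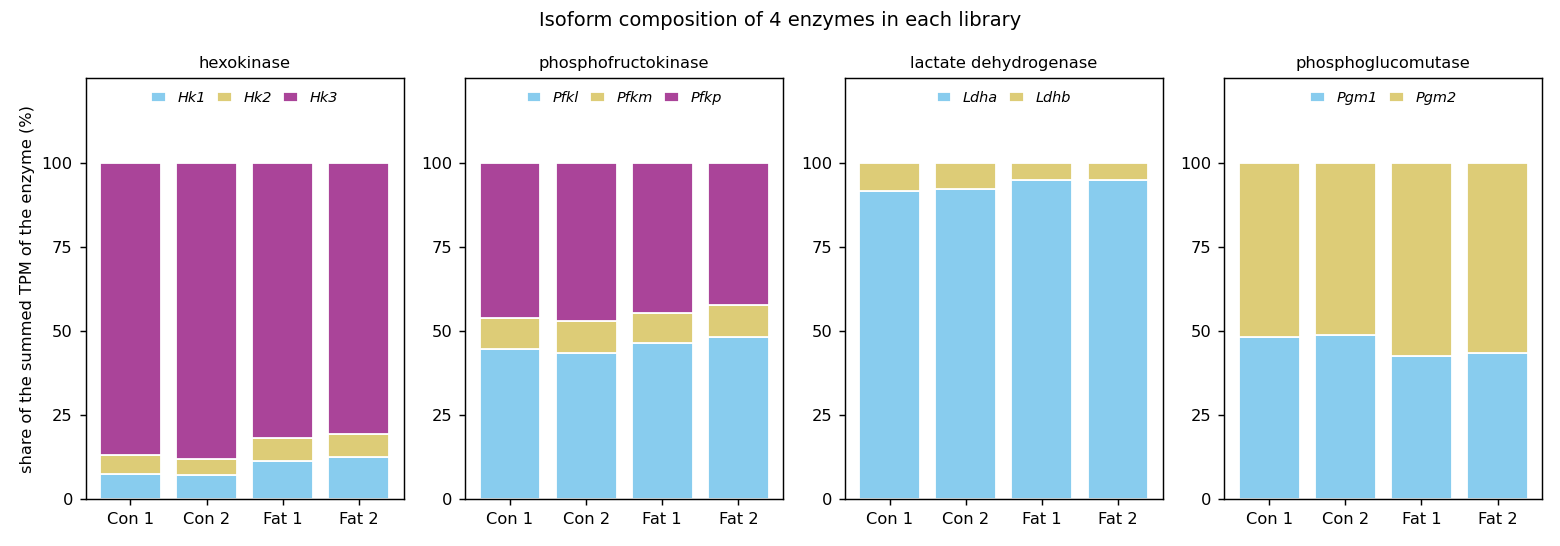
Share (%) of each form in the summed TPM of its enzyme in the 4 libraries, as stacked bars for hexokinase, phosphofructokinase, lactate dehydrogenase and phosphoglucomutase. Hk3 drops from 87.0% and 88.2% in Con to 81.9% and 80.7% in Fat, and Ldhb from 8.46% and 7.81% to 5.20% and 5.22%.

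The steps from glucose 6-phosphate to the triose phosphates held 3 more genes that rose. Gpi1, which converts glucose 6-phosphate to fructose 6-phosphate, had 422 and 447 CPM in Con and 574 and 546 CPM in Fat and rose by 0.37 (log2, SE 0.06, limma adjusted p = 0.0150). Pfkl, the liver-type phosphofructokinase that commits sugar to glycolysis, had 100.4 and 100.3 CPM in Con and 118 and 123 CPM in Fat and rose by 0.27 (log2, SE 0.05, limma adjusted p = 0.0242). Tpi1, which interconverts the triose phosphates, had 306 and 312 CPM in Con and 398 and 395 CPM in Fat and rose by 0.36 (log2, SE 0.05, limma adjusted p = 0.00941). None of these groups overlapped, but the call of Pfkl was lost without Con replicate 1 (adjusted p = 0.0611) or Fat replicate 2 (0.136).

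The other genes of this stretch did not pass. Pfkm and Pfkp, the muscle and platelet phosphofructokinases, had log2 fold changes of 0.15 and 0.07 (limma adjusted p = 0.320 and 0.509). Pfkfb3 and Pfkfb4 make and remove fructose 2,6-bisphosphate, the activator of phosphofructokinase, and had log2 fold changes of -0.09 and -0.01 (limma adjusted p = 0.400 and 0.928). Aldoa, the main aldolase, had 1158 and 1243 CPM in Con and 1389 and 1410 CPM in Fat. Its groups did not overlap, yet its log2 fold change of 0.22 (SE 0.07) had a limma adjusted p of 0.108, against 0.0343 in DESeq2 and up to 0.351 over the alternative settings. Aldoc, the brain-type aldolase, had a log2 fold change of 0.10 (limma adjusted p = 0.433) and gave at most 2.14% of aldolase TPM. Pfkl and Pfkp gave similar shares of phosphofructokinase TPM, with Pfkl at 44.6% and 43.5% in Con and 46.4% and 48.1% in Fat.

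The 6 genes from Gapdh to Pkm, the ATP-yielding stretch that ends in pyruvate, had a median log2 fold change of 0.51. Fat exceeded Con without overlap in all 6, and 5 rose. Among all tested genes 29.4% were separated with Fat higher and 3.99% were called higher. Except for Eno2, these genes share between 40.8% and 85.2% of their sequence with other genes, as described below. The part of this in their differences was not tested. Eno1, the main enolase, had 175 and 188 CPM in Con and 274 and 264 CPM in Fat. Both Fat libraries lay far above Con, and Eno1 rose by 0.57 (log2, SE 0.06, limma adjusted p = 0.00352), the smallest adjusted p among the members. Eno2, the neuronal enolase, had 10.9 and 12.3 CPM in Con and 17.4 and 17.9 CPM in Fat and rose by 0.61 (log2, SE 0.09, limma adjusted p = 0.0103). Eno1 gave between 95.6% and 96.0% of the summed TPM of Eno1 and Eno2 in all 4 libraries. The sum leaves out Eno3, which is not a member and had a mean of 5.62 TPM in Con and 6.12 TPM in Fat.

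Pgk1, which makes the first ATP of the pathway, had 20.8 and 22.2 CPM in Con and 29.2 and 29.3 CPM in Fat and rose by 0.44 (log2, SE 0.07, limma adjusted p = 0.0127). Pkm, the pyruvate kinase of most tissues, had 1652 and 1767 CPM in Con and 2251 and 2256 CPM in Fat and rose by 0.40 (log2, SE 0.08, limma adjusted p = 0.0235). In both genes the Fat libraries were nearly equal and above Con. The call of Pkm was lost without Fat replicate 1 (adjusted p = 0.0617) or Fat replicate 2 (0.0910). Pgam1, the phosphoglycerate mutase, had 27.3 and 29.5 CPM in Con and 33.4 and 34.4 CPM in Fat, without overlap, and a log2 fold change of 0.25 (SE 0.07) that missed the threshold (limma adjusted p = 0.0681).

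Gapdh, which oxidises glyceraldehyde 3-phosphate and served as the reference gene of the study's quantitative PCR, rested on few reads. It had 121 and 112 reads in Con and 181 and 218 reads in Fat, or 3.57 and 2.99 CPM against 4.85 and 5.32 CPM. The Fat libraries were the higher ones, and Gapdh rose by 0.62 (log2, SE 0.15, limma adjusted p = 0.0418). The call was lost without Con replicate 2 (adjusted p = 0.132), Fat replicate 1 (0.0655) or Fat replicate 2 (0.182), with no filter on low values (0.0751) and in DESeq2 (0.0932). Its mean of 6.14 TPM was the lowest of the 35 members, and at the adjacent steps Tpi1 had 484 TPM and Pgk1 30.5 TPM. Most of the Gapdh sequence also occurs in other genes, as described below, and the part of this in its low level was not tested.

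Lactate dehydrogenase is a tetramer of A and B subunits, and the A subunit favours lactate formation. Ldha had 620 and 686 CPM in Con and 854 and 818 CPM in Fat and rose by 0.36 (log2, SE 0.07, limma adjusted p = 0.0249). Ldhb had 38.3 and 38.9 CPM in Con and 31.3 and 30.1 CPM in Fat and fell by 0.33 (log2, SE 0.06, limma adjusted p = 0.0213). Neither gene's groups overlapped, and the B share of lactate dehydrogenase TPM was 8.46% and 7.81% in Con and 5.20% and 5.22% in Fat. Ldha lost its call without Con replicate 1 (adjusted p = 0.0601), Fat replicate 1 (0.0756) or Fat replicate 2 (0.0598). Ldhb lost its call without Con replicate 1 (adjusted p = 0.0573), Con replicate 2 (0.0521) or Fat replicate 2 (0.104).

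**Figure D3:**
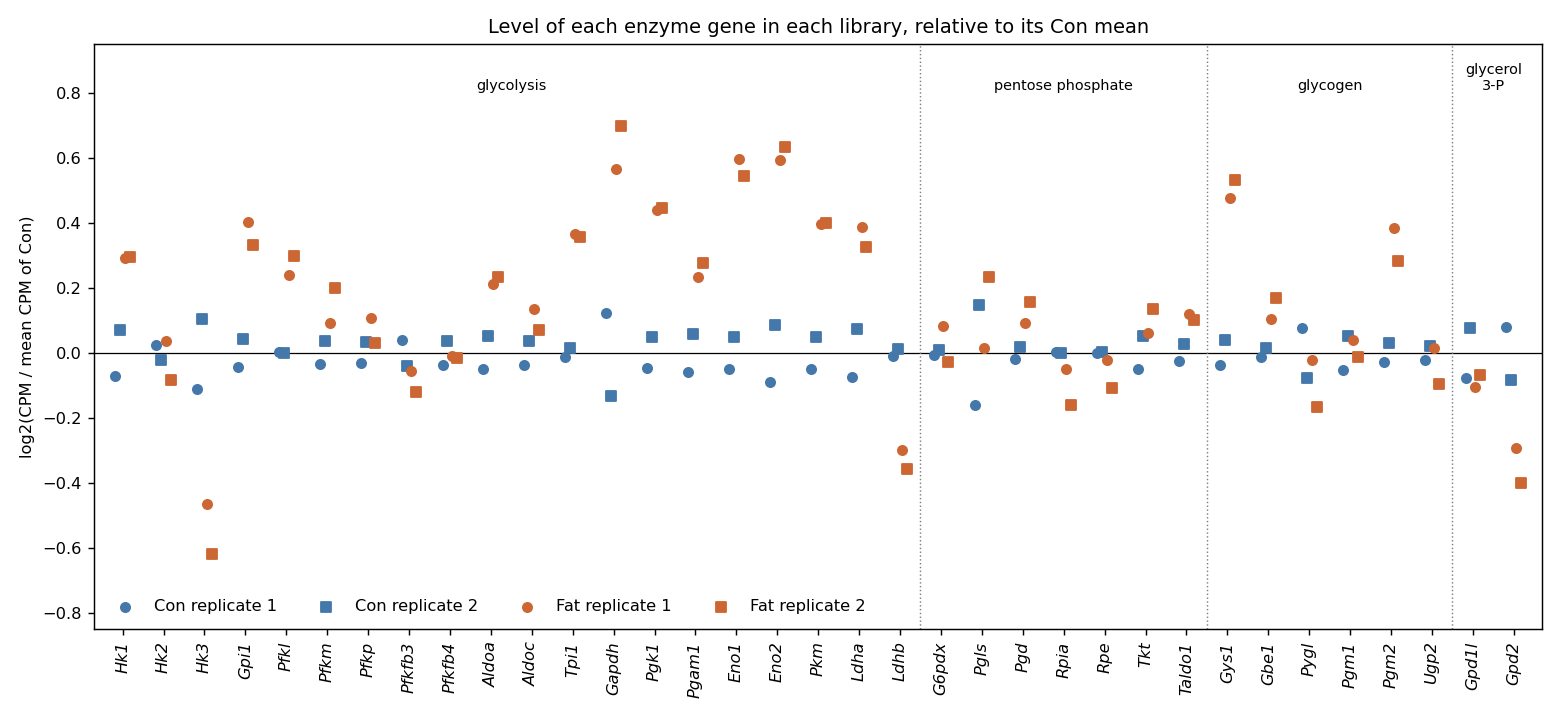
CPM of the 35 enzymes in the 4 libraries (Con 1, Con 2, Fat 1, Fat 2), each gene as log2 of its ratio to the mean of the Con libraries. The lower glycolytic enzymes separate Fat from Con, while Hk2, Pfkfb4 and Pgm1 overlap between media.

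Summed over the 20 glycolytic genes, the level was 5420 and 5715 TPM in Con and 6856 and 6757 TPM in Fat. Fat was higher by a factor of 1.22 and the groups did not overlap. On TPM values the median log2 fold change of all tested genes was 0.04, against 0.01 on CPM. The median log2 fold change of the 20 genes was 0.26, with 10 called higher and 2 lower. From hexokinase to Tpi1 (12 genes) the median was 0.12, with 4 called higher and 1 lower. Over all tested genes 3.99% were called higher and 5.0% lower.

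The members that moved in opposite directions within an enzyme are shown here with 300 bases around a transcription start (250 before and 50 after, RefSeq, GRCm38.p6), chosen after their values were seen. Hypoxia-inducible factor binds ACGTG or GCGTG, and USF and the MYC family bind CACGTG. Capitals mark every ACGTG and GCGTG on either strand, where the other strand reads as CACGT and CACGC and adjoining matches run together. Hk1 lies at chr10:62340372-62340671 (minus strand) and Hk3 at chr13:55021336-55021635 (minus strand). Ldha lies at chr7:46845554-46845853 (plus strand) and Ldhb at chr6:142507908-142508207 (minus strand).
Hk1: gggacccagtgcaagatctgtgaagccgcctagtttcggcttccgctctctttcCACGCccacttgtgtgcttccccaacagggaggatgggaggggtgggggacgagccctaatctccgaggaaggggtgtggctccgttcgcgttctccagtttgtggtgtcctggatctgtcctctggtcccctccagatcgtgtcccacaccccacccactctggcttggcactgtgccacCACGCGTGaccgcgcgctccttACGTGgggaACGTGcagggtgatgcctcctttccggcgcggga
Hk3: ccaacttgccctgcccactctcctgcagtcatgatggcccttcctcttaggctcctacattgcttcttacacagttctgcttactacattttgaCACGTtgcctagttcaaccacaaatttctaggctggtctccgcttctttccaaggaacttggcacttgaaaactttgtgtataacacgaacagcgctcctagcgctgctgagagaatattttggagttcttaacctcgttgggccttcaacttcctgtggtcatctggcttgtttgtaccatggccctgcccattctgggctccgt
Ldha: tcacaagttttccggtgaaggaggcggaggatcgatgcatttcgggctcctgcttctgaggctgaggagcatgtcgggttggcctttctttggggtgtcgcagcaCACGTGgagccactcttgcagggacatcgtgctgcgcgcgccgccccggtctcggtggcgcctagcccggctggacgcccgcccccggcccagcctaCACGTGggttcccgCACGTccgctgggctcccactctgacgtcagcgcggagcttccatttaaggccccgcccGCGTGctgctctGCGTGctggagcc
Ldhb: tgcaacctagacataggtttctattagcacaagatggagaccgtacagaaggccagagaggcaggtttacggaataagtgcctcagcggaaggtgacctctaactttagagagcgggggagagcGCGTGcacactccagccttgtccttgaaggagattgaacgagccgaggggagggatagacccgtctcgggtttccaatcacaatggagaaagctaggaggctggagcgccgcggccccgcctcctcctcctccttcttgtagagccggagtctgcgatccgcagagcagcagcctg
These windows held 4 (Hk1), 5 (Ldha), 1 (Hk3) and 1 (Ldhb) stretches in capitals. RefSeq gives Hk1 and Ldha another window each, at chr10:62379859-62380158 with 0 stretches and at chr7:46846832-46847131 with 2, and the windows richer in matches are the ones printed. The palindrome CACGTG, which contains ACGTG on both strands, occurred 2 times in the printed Ldha window and in none of the other 3 printed. A match is a string of letters and was not tested for binding.

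Over all 50 RefSeq windows of the 35 members, 44.0% held ACGTG, 52.0% held GCGTG and 74.0% held either. Among 11952 windows of tested genes these shares were 25.2%, 50.2% and 61.5%, and among all 32851 windows they were 19.6%, 32.4% and 43.8%. Of the 17 windows of members called higher 64.7% held either string, against 78.8% of the 33 windows of the other members. Windows of the same gene can overlap, as for Aldoa, Eno1 and Pfkm, so the same match can count more than once. The median GC content was 60.5% in members' windows and 60.7% in windows of tested genes.

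No pentose phosphate gene passed the test in limma, edgeR or DESeq2, and 0 of the 7 had an unadjusted limma p under 0.05. Their log2 fold changes lay between -0.10 and 0.13 with a median of 0.10. G6pdx, the entry enzyme and first source of NADPH, had 356 and 359 CPM in Con and 378 and 350.0 CPM in Fat, which overlapped (log2 fold change 0.03, SE 0.06). Pgd, the second source of NADPH, had 1357 and 1393 CPM in Con and 1463 and 1531 CPM in Fat (log2 fold change 0.12, SE 0.07, limma adjusted p = 0.346). Its groups did not overlap, with both Fat libraries above Con. Pgls, the lactonase between them, had 24.1 and 29.8 CPM in Con and 27.2 and 31.7 CPM in Fat, also overlapping.

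In the branch that rearranges sugars without NADPH, Tkt (transketolase) and Taldo1 (transaldolase) had log2 fold changes of 0.10 and 0.11 (limma adjusted p = 0.419 and 0.357). Rpia and Rpe, the isomerase and epimerase of the pentose phosphates, had log2 fold changes of -0.10 and -0.07 (limma adjusted p = 0.432 and 0.547). The media did not overlap for any of these genes, with Fat higher for Tkt and Taldo1 and lower for Rpia and Rpe. Among all tested genes 29.4% were separated with Fat higher and 26.2% with Fat lower. In the TPM values Taldo1 had the highest mean level of all members (1768 TPM), ahead of Pkm, Aldoa and Pgd (1415 TPM). Pkm shares 58.5%, Aldoa 24.4% and Taldo1 23.4% of their sequence with other genes, as described below, and Pgd shares none. Such sequence can draw reads away or make them ambiguous, and its part in this ranking was not tested. The 7 genes summed to 3857 and 3923 TPM in Con and 4249 and 4298 TPM in Fat, a factor of 1.10, although none of them passed. TPM values lay somewhat higher in Fat in general, with a median log2 fold change of 0.04 over all tested genes, against 0.01 on CPM.

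Of the 6 glycogen genes, 2 rose by limma, edgeR and DESeq2, and none fell by these or at an unadjusted limma p under 0.05. By limma 3.99% of all tested genes were called higher and 5.0% lower. Gys1, the glycogen synthase found outside the liver, had 22.9 and 24.2 CPM in Con and 32.7 and 34.0 CPM in Fat. Both Fat libraries exceeded both Con libraries, and Gys1 rose by 0.50 (log2, SE 0.07, limma adjusted p = 0.00747). Pgm2, listed as a phosphoglucomutase, an enzyme that links glucose 1-phosphate to glucose 6-phosphate, had 45.7 and 47.7 CPM in Con and 60.9 and 56.8 CPM in Fat. It rose by 0.33 (log2, SE 0.06, limma adjusted p = 0.0211), and the call was lost without Con replicate 1 (adjusted p = 0.0654) or Fat replicate 1 (0.0780). The row named Pgm1 had 39.4 and 42.5 CPM in Con and 42.0 and 40.6 CPM in Fat, which overlapped. RefSeq gives each of these symbols as an older name of the other and the table uses older names elsewhere, so which locus each row holds cannot be told from it.

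The remaining glycogen genes did not pass. Gbe1, the branching enzyme, had 52.3 and 53.3 CPM in Con and 56.8 and 59.3 CPM in Fat, without overlap (log2 fold change 0.14, SE 0.06, limma adjusted p = 0.201). Pygl, the phosphorylase first described in liver, had 215 and 193 CPM in Con and 201 and 181 CPM in Fat, which overlapped (log2 fold change -0.09, SE 0.07, limma adjusted p = 0.501). Ugp2, which makes UDP-glucose, had a log2 fold change of -0.04 (limma adjusted p = 0.730). Summed over the 6 genes the level was 407 and 392 TPM in Con and 431 and 404 TPM in Fat, which overlapped.

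The 2 glycerol 3-phosphate members did not rise in any of the 3 tools or at an unadjusted limma p under 0.05. Gpd1, which is not a member, did rise and is described below. Gpd2, the mitochondrial dehydrogenase that hands electrons to the respiratory chain, had 54.0 and 48.2 CPM in Con and 41.7 and 38.7 CPM in Fat. The groups did not overlap, and Gpd2 fell by 0.34 (log2, SE 0.08, limma adjusted p = 0.0339). The call was lost without Con replicate 1 (adjusted p = 0.122) or Fat replicate 2 (0.148) and on TPM values (0.107). Gpd1l, a relative of the cytosolic enzyme, had 48.9 and 54.4 CPM in Con and 48.0 and 49.3 CPM in Fat, which overlapped (log2 fold change -0.09, limma adjusted p = 0.508).

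Among 38 tested genes of these pathways that are not members, from a list of 57, 2 were called higher and 0 lower. Of all tested genes, 3.99% were called higher and 5.0% lower. At an unadjusted limma p under 0.05, 9 of the 38 were higher and 3 lower, and edgeR called 1 lower and DESeq2 none. Of all 12470 tested genes, 3008 had an unadjusted limma p of at most 0.05. The median log2 fold change of the 38 genes was 0.03. Gpd1, the cytosolic glycerol 3-phosphate dehydrogenase, had 3.13 and 3.39 CPM in Con and 9.03 and 7.73 CPM in Fat and rose by 1.33 (log2, SE 0.13, limma adjusted p = 0.00347). Gpd1 is also abundant in adipocytes, and of the 11 adipocyte markers it rose together with Car3 and Cidec, while reads of Adipoq, the adiponectin gene, numbered 28 and 14 in Fat and 0 in each Con library. Summed, the 11 adipocyte markers overlapped between media, with 213 and 232 CPM in Con and 217 and 208 CPM in Fat. None of the 11 was called lower. Gpd1 and Adipoq (0.750 and 0.341 CPM in Fat) are a small part of these sums, which therefore do not show how such genes differed. Adipoq did not reach 0.5 CPM in 2 libraries, so it was not tested. The part of fat-cell RNA in the Gpd1 difference was not tested. H6pd, the hexose 6-phosphate dehydrogenase of the endoplasmic reticulum, rose from 138 ± 1.84 to 163 ± 7.54 CPM (mean ± SD, n = 2 each, log2 fold change 0.25, limma adjusted p = 0.0372). Its call was lost without Con replicate 1 (adjusted p = 0.103), Con replicate 2 (0.0528) or Fat replicate 2 (0.220) and without the trend (0.163), where that of Gpd1 was lost as well (0.0576). Gsk3b, Gaa and Gyg, the others of highest level, had log2 fold changes of 0.15, 0.00 and -0.20 and did not pass.

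Several glycolytic genes have processed copies elsewhere in the genome, whose sequence can draw reads away or make them ambiguous. Transcripts were therefore cut into 75-base stretches, and a stretch was called shared if it matched a transcript of another gene with at most 2 mismatches. Eno1 shared 85.2% of its stretches with 10 other genes, 9 of them pseudogenes, and Gapdh shared 82.6% with 239 other genes, 229 of them pseudogenes. Pgk1 shared 67.2%, Ldhb 61.4%, Pkm 58.5%, Gpi1 45.9%, Pgam1 40.8% and Ldha 39.5%. Gpi1 shared with 26 other genes, of which only 1 was a pseudogene. Aldoa, Taldo1 and Tpi1 shared between 20.8% and 24.4%, and 21 members shared none. The Eno1b row, a retrogene copy of Eno1, held the same reads as Eno1 to within 1 read (5951, 7042, 10239 and 10842), so the Eno1 values belong to both names and cannot be told apart.

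The calls were also counted by shared sequence, without a test of the difference. Of the 11 members that shared over 20%, 7 were called higher and 1 lower, with a median log2 fold change of 0.36. Of the 24 others, 5 were called higher (Hk1, Pfkl, Eno2, Gys1 and Pgm2) and 2 lower (Hk3 and Gpd2), with a median of 0.05. Over all tested genes 3.99% were called higher and 5.0% lower. The 21 members with no shared stretch had a median of 0.10. Restricted to the 24, the glycolytic median was 0.09 in place of 0.26. How reads matching several loci were counted is not given in the sources used here, and the part of shared sequence in the differences was not tested. Across the 35 members Spearman's rho was 0.40 between the shared percentage and the log2 fold change and 0.00 between TPM and the log2 fold change, as a description over genes measured in the same libraries.

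**Figure D4:**
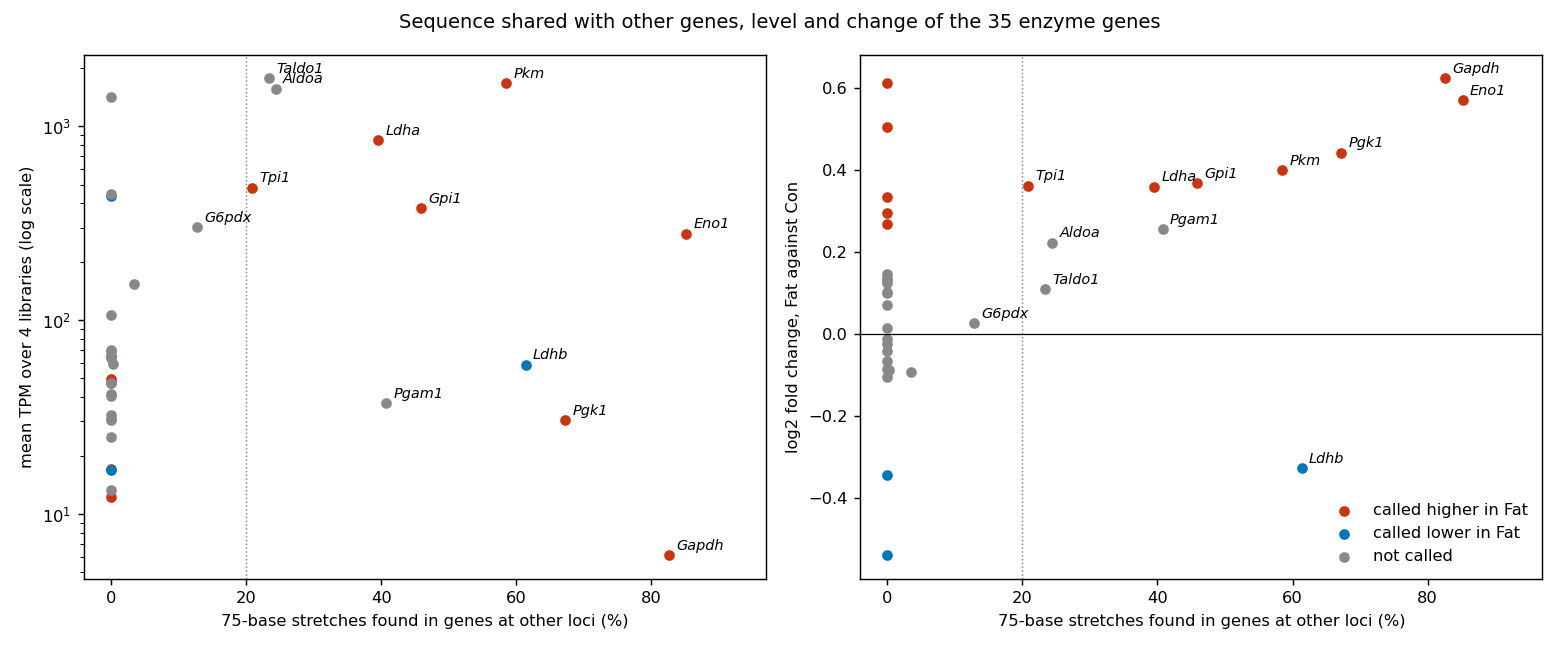
Mean TPM over the libraries (left, log axis) and log2 fold change of Fat over Con (right) of each member against the percentage of its 75-base transcript stretches that match another gene, coloured by call. On the right Gapdh (82.6%) has the highest log2 fold change, followed by Eno2 (0%) and Eno1 (85.2%), Ldhb (61.4%) lies below 0, and members with no shared stretch run from -0.54 to 0.61.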

How the data were processed

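Polyadenylated RNA of the 4 libraries was sequenced after stranded library preparation. The CPM values deposited by the authors were reads scaled by library size and a further factor per library (0.990 to 1.01), and the authors also deposited TPM values. The submitters' processing notes name GRCm39, while the aligner and annotation are not given in the sources used here. Whole reads were recovered from the CPM steps (100% of values within 1e-06 reads). The study names edgeR for its comparison, but since CPM values are not counts, the main test was limma 3.58.1 (R 4.3.3, trend) on log2(CPM + 0.1) over genes reaching 0.5 CPM in 2 or more libraries, with Benjamini-Hochberg adjustment. The numbers 1 and 2 of the libraries were not taken as pairs. Fold changes on this scale understate those of low genes.

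Alternatives were edgeR 4.0.16 and DESeq2 1.42.0 on recovered reads, a pseudocount of 1, no filter or a mean of at least 5 CPM, TPM values, median-ratio scaling, no trend, the replicate block, each library left out, an unadjusted p and only members sharing at most 20% of their sequence. Leaving out Gapdh was chosen after seeing the data. All 35 members were named, and of the other pathway genes those called and the 4 highest by mean CPM. The members and lists were chosen with earlier results of these data known. Older symbols were matched through RefSeq names (Adgre1 was listed as Emr1). Shared sequence was searched every 5 bases on both strands of GENCODE transcripts from a GRCm38 annotation, and promoter windows came from RefSeq GRCm38.p6, so neither is of the files' build. Scripts were tested on simulated data. Python 3.11.15, pandas 2.3.3 and scipy 1.17.1 were used.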

Additional observations from a re-analysis of the deposited data

How the results depend on the processing

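Of the 15 calls among members, 7 (Hk3, Gpi1, Tpi1, Pgk1, Eno1, Eno2 and Gys1) held with each library left out in turn, where a lone library is assumed to vary like the other group. Leaving out 1 library gave 7 to 11 members called higher, 1 to 3 called lower and 529 to 1131 genes called of all tested, against 12, 3 and 1122. Without the mean-variance trend these were 0, 0 and 31 (the cause was not tested), while 14 and 3 members passed at an unadjusted p under 0.05. With the replicate block 2520 genes were called and 13 and 3 members, Pgam1 being added. Same-numbered libraries deviated together weakly (correlation 0.20 over 12470 genes), and only 2 pairs exist, so the numbers were not taken as pairs. At an unadjusted p of at most 0.05, 3008 genes passed. edgeR kept all 15 calls and DESeq2 lost Gapdh and added Aldoa. The members' median log2 fold change (0.12) ranged from 0.083 to 0.16 with 1 library left out and was 0.048 over the 24 members sharing at most 20% of their stretches, where the glycolytic median was 0.086, and 0.099 over the 21 sharing none. The pentose phosphate median ranged from 0.019 to 0.14 and the glycogen median from 0.054 to 0.11 with 1 library left out, and the latter was 0.11 on TPM values. Members that were not called changed sign. On TPM values Hk2 was 0.0069 and Pfkfb4 0.020. With 1 library left out Hk2 ranged from -0.086 to 0.036, Pfkfb4 from -0.048 to 0.024, G6pdx from -0.030 to 0.082, Pgls from -0.021 to 0.28, Pgm1 from -0.040 to 0.067 and Ugp2 from -0.097 to 0.016. The cause of these shifts was not tested. Gapdh had the fewest reads of the members, at 112 to 218.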
